A study of Mus musculus with 8 samples.

Results

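Genes of muscle membrane repair were examined in soleus, a postural muscle of the calf, of mice that carry the dynamin 2 mutation K562E. The group holds 10 genes, found in the files by symbol: the ferlins Dysf and Myof, the annexins Anxa1, Anxa2, Anxa4, Anxa5 and Anxa6, the tripartite motif protein Trim72, the anoctamin Ano5 and the calpain Capn3. They are 10 of the 22880 genes counted, and all 10 are among the 14001 genes that had enough counts to be tested. RNA of 4 Dnm2 +/+ mice (control) and 4 Dnm2 +/K562E mice was sequenced from whole muscle, and each library is a separate male animal at 2 months of age, labelled C57BL/6 (the study's methods give the J substrain). Controls were age-matched animals or littermates. The mutation was knocked into the endogenous Dnm2 locus in embryonic stem cells, so every cell of a mutant mouse carries it in the heterozygous state, together with a LoxP site left in an intron. Dynamin 2 is a large GTPase that cuts vesicles from membranes. The counts add up both Dnm2 alleles, so the level of Dnm2 cannot check the genotype labels. From reads aligned to each allele, the paper reported no mutation in controls and a similar abundance of both alleles in mutant soleus.

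A contracting muscle fibre often tears its surface membrane, the sarcolemma, and calcium entering through the tear starts its repair. Dysferlin, the protein of Dysf, has calcium-binding C2 domains and is needed for resealing, and loss of it causes a limb-girdle muscular dystrophy. Trim72, also called MG53, brings vesicles to the wound, and annexins bind exposed acidic phospholipids in the presence of calcium and form a cap over it. Ano5 is an anoctamin of muscle internal membranes, and Capn3 is a muscle protease held on titin. Both are also limb-girdle dystrophy genes.

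The deposited values are read counts per gene. Totals ran from 33407430 to 48832814 counts per mouse, and no member had fewer than 720 counts in any mouse. Values below are normalized CPM, counts relative to the TMM-scaled total of the library, a scaling that aligns the libraries on the bulk of their genes. The TMM factors were 0.915 to 0.959 in controls and 1.037 to 1.103 in Dnm2 +/K562E mice, so this scaling differs between the genotypes. A gene passed the test at an adjusted p under 0.05 (quasi-likelihood F-test of edgeR, Benjamini-Hochberg over all tested genes), and it passed both thresholds when its log2 fold change was also 0.58 or more in size. Fold changes are Dnm2 +/K562E over control. Many genes differed in this muscle. Of all tested genes, 43.8% passed the test and 20.7% passed both thresholds, 1806 of them higher and 1099 lower (2865 and 564 with library size as the sole scaling).

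Of the 10 members, 9 passed the test, 6 higher and 3 lower in Dnm2 +/K562E mice, against 22.2% higher and 21.7% lower among all tested genes. Both thresholds were passed by 7 members. These were Myof, Anxa1, Anxa2, Anxa4 and Anxa5, all higher against 12.9% of all tested genes, and Ano5 and Capn3, both lower against 7.85%. Trim72 was higher and Dysf lower below the fold threshold, and Anxa6 did not pass the test. In 8 members the values of the genotypes did not overlap, which held for 41.2% of all tested genes. The median log2 fold change was 0.51 over the members and 0.01 over all tested genes. In whole muscle a lower value can come from fewer cells of a type or from less RNA per cell, and these cannot be told apart. The members had been chosen with earlier results of these data known, so their counts are a description.

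The sequence before a start of transcription is shown for Ano5 and Capn3, the members lowered past both thresholds. It is also shown for Anxa2, the only member with TGANTCA, among the words searched, in a window. Windows of Anxa1 and Anxa4, not printed, held other searched words. RefSeq promoter windows (build GRCm38.p6, 250 bases before to 50 bases after a start) were found for 9 of the 10 members, 12 windows in all, with none for Anxa6. Printed here are the bases of the window before the start that lie ahead of the exon annotated there, all on the plus strand, 5′ to 3′, from chr9:69453433-69453619 (187 bases), chr7:51510779-51511028 (250 bases) and chr2:120463343-120463578 (236 bases). The Capn3 stretch lies inside the gene as annotated, ahead of an internal start annotated for protein-coding transcripts, while non-coding transcripts begin farther upstream. Another Capn3 window (chr2:120476659-120476958) is not printed, and which start soleus uses was not measured. Capitals mark a match to a searched word.
Anxa2: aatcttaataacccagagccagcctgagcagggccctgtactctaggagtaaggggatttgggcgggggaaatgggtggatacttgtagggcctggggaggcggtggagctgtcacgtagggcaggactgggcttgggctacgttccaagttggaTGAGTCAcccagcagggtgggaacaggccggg
Ano5: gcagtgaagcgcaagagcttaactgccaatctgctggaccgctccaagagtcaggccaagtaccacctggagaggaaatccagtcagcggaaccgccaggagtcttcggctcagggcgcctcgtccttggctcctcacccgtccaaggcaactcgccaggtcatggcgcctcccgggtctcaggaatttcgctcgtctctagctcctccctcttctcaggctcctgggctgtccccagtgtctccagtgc
Capn3: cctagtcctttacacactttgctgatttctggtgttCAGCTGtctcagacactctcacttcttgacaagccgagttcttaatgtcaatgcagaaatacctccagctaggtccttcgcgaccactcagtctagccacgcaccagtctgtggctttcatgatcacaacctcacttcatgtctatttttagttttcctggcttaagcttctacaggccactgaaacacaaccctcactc

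The words searched on both strands were TGANTCA, the AP-1 word, CAGCTG, an E-box bound by myogenic factors, and CATTCC, bound by TEAD factors. The AP-1 word stood in 1 of the 12 member windows, that of Anxa2, where TGAGTCA began 95 bases before the start, and in 7.81% of all 32851 windows. The E-box word stood in 3 member windows and in 16.3% of all windows. It lay 214 bases before the start in the first Capn3 window, 27 bases after the start in the other Capn3 window, and 161 bases before the start in the second window of Anxa4. CATTCC was found in 1 member window, that of Anxa1, 236 bases before the start, and in 14.7% of all windows. Neither the Ano5 window nor those of Dysf, Myof, Anxa5 and Trim72 held any of the words. A match says only that these letters are present, and factor binding was not measured.

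The ferlins moved in opposite directions. Dysf (ENSMUSG00000033788, chr6:84008590-84211060, plus strand, GRCm38) had 66.6, 87.7, 82.4 and 77.1 normalized CPM in controls 1 to 4 and 58.7, 58.2, 69.3 and 64.3 in Dnm2 +/K562E mice 1 to 4. Control 1 lay below Dnm2 +/K562E mouse 3, so the genotypes overlapped. The mean was 78.4 ± 9.04 in controls and 62.6 ± 5.24 in Dnm2 +/K562E mice (SD, n = 4 each, as for all means below), so that it fell by 20.2%, with a log2 fold change of -0.33 (SE 0.09, adjusted p = 0.0143 by edgeR). This fall depended on the scaling. With library size alone it was -0.12 with an adjusted p of 0.29 by edgeR, while the median of all tested genes stood at 0.219 there, and relative to that median Dysf was at -0.33.

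Myof encodes myoferlin, a relative of dysferlin known from myoblast fusion and from non-muscle cells. It (ENSMUSG00000048612, chr19:37899036-38043577, minus strand) had 21.7, 21.4, 23.2 and 26.9 normalized CPM in the controls and 44.4, 38.3, 34.4 and 35.3 in Dnm2 +/K562E mice 1 to 4. All mutant values lay above all control values. The means of 23.3 ± 2.53 and 38.1 ± 4.51 differed by a log2 fold change of 0.71 (SE 0.10, adjusted p = 0.000232 by edgeR), a 1.63-fold rise. Taken within each mouse, Myof counts per Dysf count had a geometric mean of 0.297 in controls and 0.607 in Dnm2 +/K562E mice. On the log2 scale this ratio was -1.62, -2.04, -1.83 and -1.52 in controls 1 to 4 against -0.40, -0.60, -1.01 and -0.86 in the mutants, with no overlap. The ratio does not depend on how libraries are scaled. It was 2.04-fold higher in Dnm2 +/K562E mice, a log2 difference of 1.03 (exact two-sided permutation test, p = 0.0286, the smallest that 4 against 4 mice allow, 0.0429 adjusted over 3 ratios). Myof and Dysf had each passed the test above in the same mice, in opposite directions, so this p-value is not separate support.

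Of the annexins, 4 rose past both thresholds and the most abundant in controls, Anxa6, did not pass the test. Anxa1 encodes annexin A1, which also acts outside cells in the resolution of inflammation. It (ENSMUSG00000024659, chr19:20373428-20390944, minus strand) had 44.3, 42.5, 44.4 and 54.2 normalized CPM in the controls and 105.9, 119.7, 104.6 and 98.7 in Dnm2 +/K562E mice 1 to 4. The lowest mutant was well above the highest control. The mean went from 46.3 ± 5.29 to 107.2 ± 8.87, a 2.31-fold rise and the largest among the members (log2 fold change 1.21, SE 0.09, adjusted p = 3.01e-06 by edgeR).

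Anxa2 encodes annexin A2, which pairs with S100A10 into a membrane-bridging complex and binds dysferlin. It (ENSMUSG00000032231, chr9:69453620-69491795, plus strand) had 90.5, 129.0, 129.1 and 140.5 normalized CPM in controls 1 to 4, where control 1 was low, and 204.6, 182.8, 180.6 and 169.2 in Dnm2 +/K562E mice 1 to 4. The genotypes did not overlap. The mean rose from 122.3 ± 21.9 to 184.3 ± 14.8, and the log2 fold change of 0.59 (SE 0.12, adjusted p = 0.00238 by edgeR) was just past the fold threshold. It fell below that threshold without control 1 (0.46, adjusted p = 0.000452 by edgeR) and without Dnm2 +/K562E mouse 1 (0.54, adjusted p = 0.00913 by edgeR).

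Anxa4 and Anxa5 rose by similar factors. Anxa4, an annexin of epithelial and secretory cells that binds and curves membranes (ENSMUSG00000029994, chr6:86736840-86793584, minus strand), had 35.8, 31.5, 32.5 and 36.4 normalized CPM in the controls and 63.2, 55.2, 56.3 and 56.2 in Dnm2 +/K562E mice 1 to 4. Its mean went from 34.1 ± 2.42 to 57.7 ± 3.68 (log2 fold change 0.76, SE 0.07, adjusted p = 1.63e-05 by edgeR). Anxa5, which assembles into lattices on exposed phosphatidylserine (ENSMUSG00000027712, chr3:36448923-36475894, minus strand), had 90.1, 110.8, 106.8 and 113.5 normalized CPM in the controls and 185.7, 162.8, 165.8 and 152.8 in the mutants. In both genes every Dnm2 +/K562E mouse was above every control. The Anxa5 mean went from 105.3 ± 10.5 to 166.8 ± 13.8 (log2 fold change 0.66, SE 0.09, adjusted p = 0.000122 by edgeR).

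Anxa6 encodes the large annexin of muscle with a doubled annexin core, which gathers in the repair cap. It (ENSMUSG00000018340, chr11:54979108-55033445, minus strand) had 184.6, 232.0, 220.9 and 220.8 normalized CPM in the controls and 242.6, 214.3, 216.5 and 233.6 in Dnm2 +/K562E mice 1 to 4. The genotypes overlapped, with means of 214.6 ± 20.7 and 226.7 ± 13.6. The log2 fold change was 0.08 (SE 0.08, adjusted p = 0.437 by edgeR), and with library size alone it was 0.29 (adjusted p = 0.0121 by edgeR), which is 0.07 above the median of all tested genes under that scaling. The log2 ratio of Anxa2 to Anxa6 counts in the same mouse was -1.03, -0.85, -0.77 and -0.65 in the controls and -0.25, -0.23, -0.26 and -0.46 in Dnm2 +/K562E mice 1 to 4. No mutant fell within the control range, and the mean difference was 0.53, a 1.44-fold higher ratio (exact two-sided permutation test, p = 0.0286, adjusted p = 0.0429 over 3 ratios). Anxa2 had passed the test above in the same mice, so this p-value is not separate support.

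**Figure D1:**
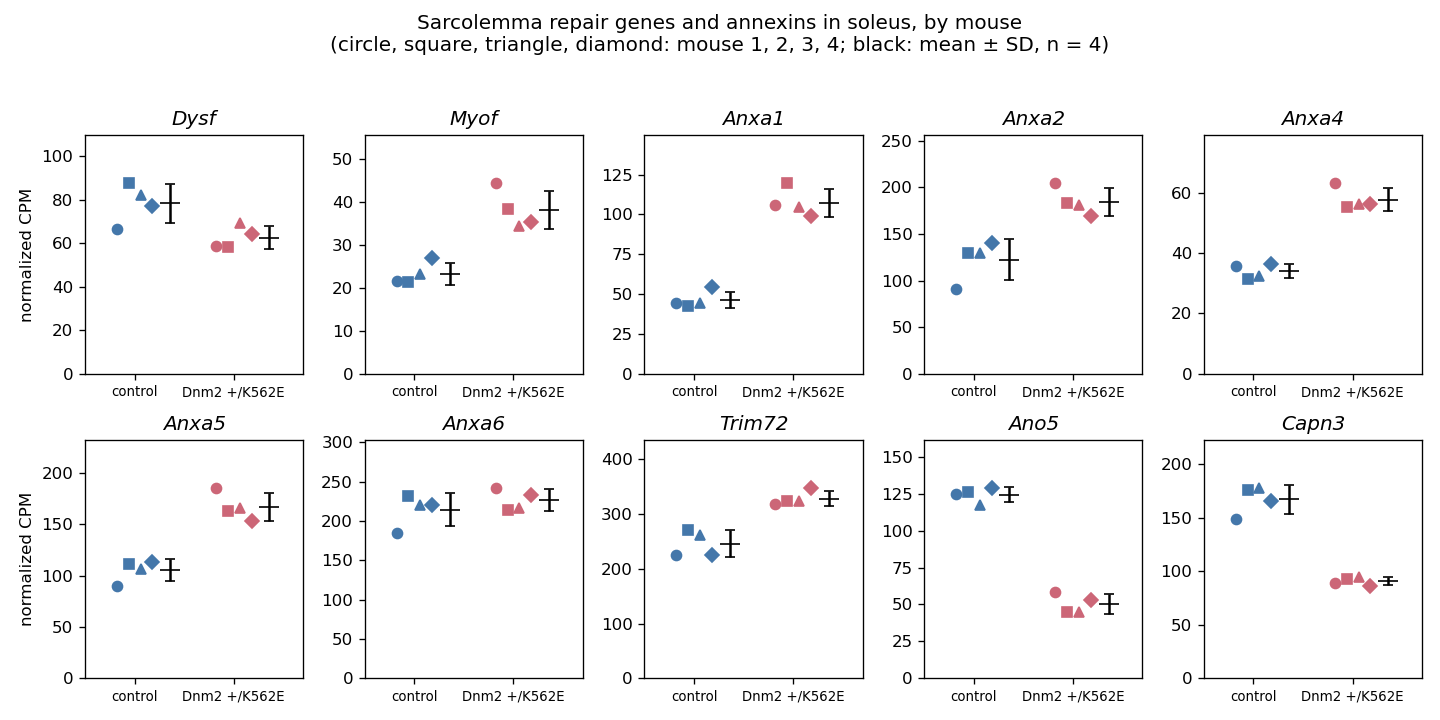
Normalized CPM of the 10 members, 1 panel per gene with 1 point per mouse, controls and Dnm2 +/K562E mice side by side, with the mean and SD of 4 mice. Points of the genotypes overlap in Dysf and Anxa6, and in the other 8 panels they are apart, as in Ano5 with 117.1 to 129.2 in controls and 44.9 to 58.5 in Dnm2 +/K562E mice.

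The annexins and Myof are also made by cells other than muscle fibres, and markers of such cells differed in these libraries. All 7 macrophage markers were higher in Dnm2 +/K562E mice, and their summed level was 72.8 to 135.5 normalized CPM in controls and 179.3 to 295.6 in the mutants. The highest sum among the controls belonged to control 4, and the other controls had 72.8 to 78.7. The macrophage markers of highest normalized CPM were Csf1r (mean 33.3 in controls, 75.3 in mutants) and Mrc1 (24.0 and 53.1). Of the fibroblast markers 7 of 8 passed the test higher, against 22.2% of all tested genes, and Thy1 was higher without passing. The fibroblast sums were 1941.7 to 2935.6 and 4114.4 to 5318.3 normalized CPM, led by Dcn (757.7 and 1508.8) and Col3a1 (708.3 and 1569.2). Tendon markers were higher in 5 of 6 genes, with sums of 327.4 to 736.6 and 933.5 to 1291.5, Fmod going from 339.7 to 733.6 while Chad had 66.8 and 65.1. Among Myof, Anxa1, Anxa2, Anxa4 and Anxa5, control 4 was the highest control in 5 of 5 genes and Dnm2 +/K562E mouse 1 the highest mutant in 4 of 5. How often these mice were highest over all tested genes was not counted. The 5 genes were read from the same 8 libraries, so this order of mice is a description only. In Anxa1 the highest mutant was mouse 2. Control 1 was the lowest control in Anxa2 and Anxa5, while control 3 had the lowest macrophage sum. No marker was at 0 in every mouse. The part of these cells in the higher annexin levels was not tested.

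Trim72 is made in striated muscle and rose. It (ENSMUSG00000042828, chr7:128003949-128011033, plus strand) had 224.5, 271.3, 261.9 and 224.9 normalized CPM in the controls and 317.7, 323.6, 323.3 and 348.4 in Dnm2 +/K562E mice 1 to 4. The mutants lay closer together than the controls, and all of them above. The mean went from 245.7 ± 24.5 to 328.3 ± 13.7, a 1.34-fold rise (log2 fold change 0.42, SE 0.08, adjusted p = 0.00114 by edgeR). Of the 31-base stretches in its transcripts, 25.3% also occur in Gm15533, a gene model that the authors' files do not count, so reads from that locus may be lost or shared.

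Ano5 fell the most. It (ENSMUSG00000055489, chr7:51511029-51598709, plus strand) had 124.5, 126.0, 117.1 and 129.2 normalized CPM in the controls and 58.5, 45.2, 44.9 and 52.9 in Dnm2 +/K562E mice 1 to 4. The spread within a genotype was small next to the gap between them. The mean went from 124.2 ± 5.13 to 50.4 ± 6.58, so that Ano5 fell by 59.5% (log2 fold change -1.30, SE 0.09, adjusted p = 1.96e-06 by edgeR), and none of its 31-base stretches occurs in another gene.

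Capn3 (ENSMUSG00000079110, chr2:120456019-120504913, plus strand) had 148.9, 176.0, 178.2 and 165.5 normalized CPM in the controls and 89.0, 92.9, 94.4 and 86.5 in Dnm2 +/K562E mice 1 to 4. The mutants were within a few units of each other and far below the controls. The mean went from 167.1 ± 13.4 to 90.7 ± 3.60, so that Capn3 fell by 45.7% (log2 fold change -0.88, SE 0.07, adjusted p = 4.03e-06 by edgeR). Capn3 shares 386 exon bases, 7.7% of its exons, with Ganc on the same strand, and a read over them counted for both genes. Ganc was at 22.7 normalized CPM in controls and 18.7 in mutants.

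Genes of mature muscle fibres were lower in the same mice. Of the slow fibre markers 5 of 6 passed the test lower, against 21.7% of all tested genes, and Tnni1 was lower without passing. The slow fibre sum was 16781.0 to 19618.5 normalized CPM in controls and 9799.3 to 12125.2 in mutants, with Myh7 at 6013.6 and 4193.4 and Atp2a2 at 3809.1 and 2615.8. Of the fast fibre markers 7 of 8 passed lower, and Myh1 was lower without passing. The fast fibre sums were 38911.9 to 40689.1 and 22811.3 to 26936.1, with Myh2 at 9753.2 and 6342.7 and Atp2a1 at 7716.1 and 3390.3. Control 4 stood apart in Myh4, with 3133.8 normalized CPM against 162.8 to 426.4 in the other controls, and in Actn3, with 757.7 against 235.9 to 389.2. Without control 4 the members past both thresholds were still 5 higher and 2 lower. Trim72 was higher in the same mutants, and its relation to these fibre markers was not tested. Markers of satellite cells and regenerating fibres were mixed. Myog, Myh3 and Ncam1 rose, Pax7 and Myf5 fell, and 3 of the 8 did not pass the test, while the sum was 83.2 to 98.4 in controls and 408.7 to 585.8 in mutants, mostly Myh3 (23.1 and 330.3). Endothelial markers passed lower in 5 of 6 genes (sums 909.0 to 952.3 and 648.7 to 745.3), with Cdh5 at 318.5 and 241.9 and Pecam1 at 270.2 and 225.8, and Cldn5 was lower without passing. The part of these cells and fibres in the lower Ano5, Capn3 and Dysf levels was not tested.

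**Figure D2:**
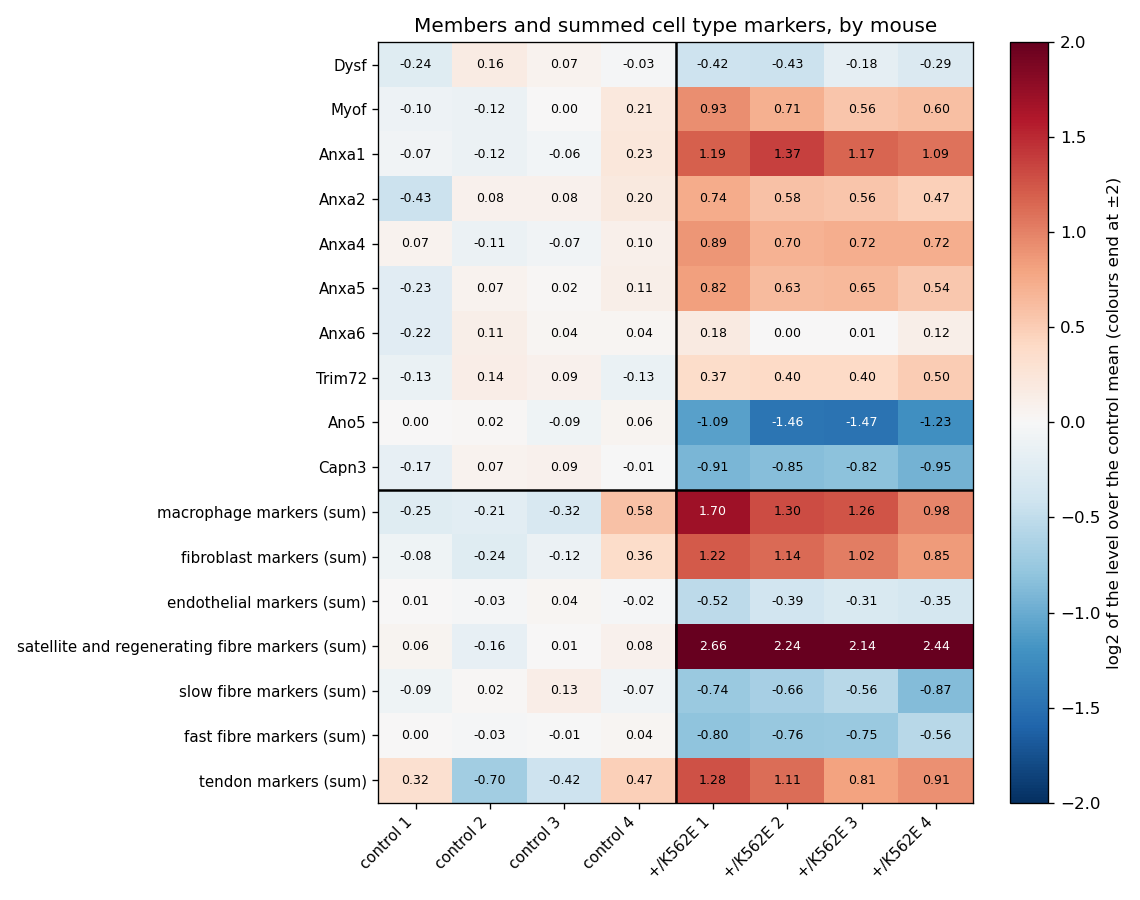
Members and summed marker lists (rows) in each of the 8 mice (columns), coloured by log2 level relative to the control mean. The annexins other than Anxa6, Myof, and the macrophage, fibroblast and tendon sums are higher in the mutant columns, and Ano5, Capn3 and the fibre sums are lower, with Ano5 between -1.47 and -1.09.

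Levels of different genes were compared per kilobase of exon, since longer transcripts give more reads. The length was that of all annotated exons of a gene joined together, which can exceed the transcript made in soleus. The order of genes therefore depends on the annotation, and the transcripts in use were not measured. In controls Trim72 led with a mean of 110.0 CPM per kb (100.6 to 121.5 over 4 mice), followed by Anxa6 with 73.2 ± 7.06 and Anxa5 with 59.3 ± 5.92, and the ranges of these annexins overlapped. Capn3 (33.3 ± 2.66) and Anxa2 (32.8 ± 5.86) overlapped, as did Anxa1 (15.9 ± 1.82) and Ano5 (15.9 ± 0.657). Dysf at 9.42 ± 1.09, Anxa4 at 7.33 ± 0.521 and Myof at 1.85 ± 0.201 CPM per kb came last, each apart from its neighbours. Dysf thus stood above Myof in controls on this scale.

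In Dnm2 +/K562E mice Trim72 still led with 147.0 ± 6.14 CPM per kb. Anxa5 (93.8 ± 7.76) stood above Anxa6 (77.4 ± 4.65), and the ranges no longer overlapped. Then came Anxa2 at 49.4 ± 3.96, Anxa1 at 36.8 ± 3.05, Capn3 at 18.1 ± 0.716 and Anxa4 at 12.4 ± 0.793 CPM per kb. Capn3 had moved below Anxa1, and Ano5 below Anxa4. Dysf (7.52 ± 0.63) and Ano5 (6.44 ± 0.842) overlapped, and Myof was still the lowest at 3.02 ± 0.358.

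**Figure D3:**
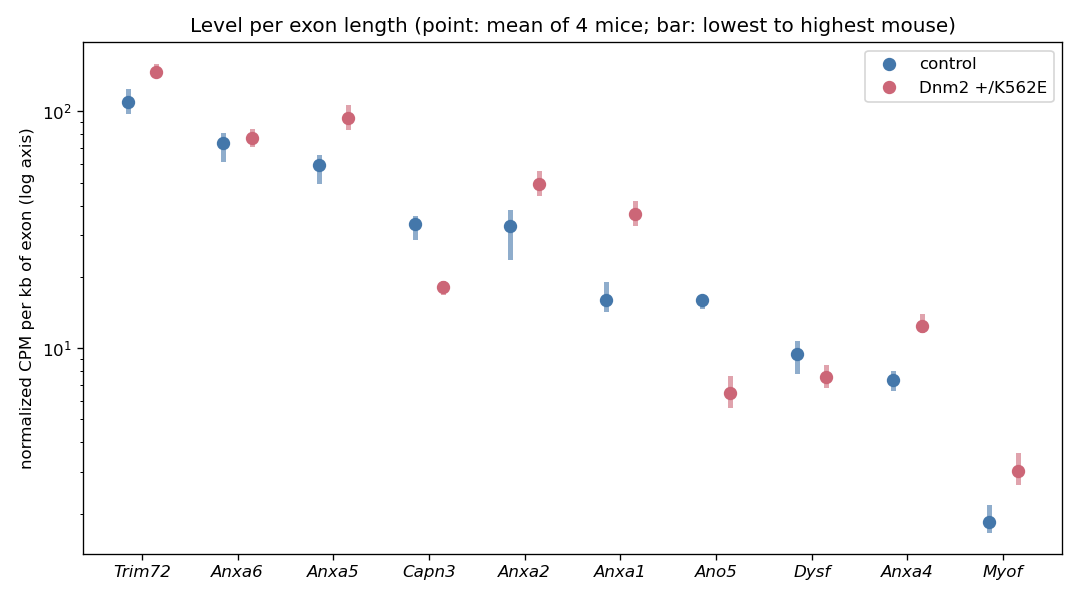
Level of each member as CPM per kilobase of exon on a log axis, with a point for the mean of 4 mice and a bar from the lowest to the highest mouse, in controls and in Dnm2 +/K562E mice. Trim72 is at the top of both genotypes (mean 110.0 and 147.0) and Myof at the bottom (1.85 and 3.02).

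A wider set of 61 genes in 7 lists was set beside the members, of which 54 could be tested. Of these, 24 passed the test higher and 5 lower (22.2% and 21.7% of all tested genes), and 12 passed both thresholds higher and 0 lower (12.9% and 7.85% of all tested genes, and 1 lower, Fer1l6, at an unadjusted p under 0.05 with the fold threshold, edgeR), and the median log2 fold change was 0.11. DESeq2 called 2 lower and the exact test of edgeR 1. Among 5 tested annexins outside the members, Anxa7, a widely made annexin, rose from 69.4 ± 0.921 to 130.2 ± 3.99 normalized CPM (log2 fold change 0.91, SE 0.05, adjusted p = 7.87e-07 by edgeR). Anxa8 (3.97 ± 1.05 to 9.12 ± 2.43, adjusted p = 0.00169) and Anxa9 (0.252 ± 0.177 to 0.614 ± 0.0728, adjusted p = 0.0368) also rose in that edgeR fit, at low levels. Anxa3 and Anxa11 did not pass the test. Of the other ferlins 2 of 4 could be tested, Otof and Fer1l6, and neither passed, while Fer1l5 had 0 counts in every mouse.

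**Figure D4:**
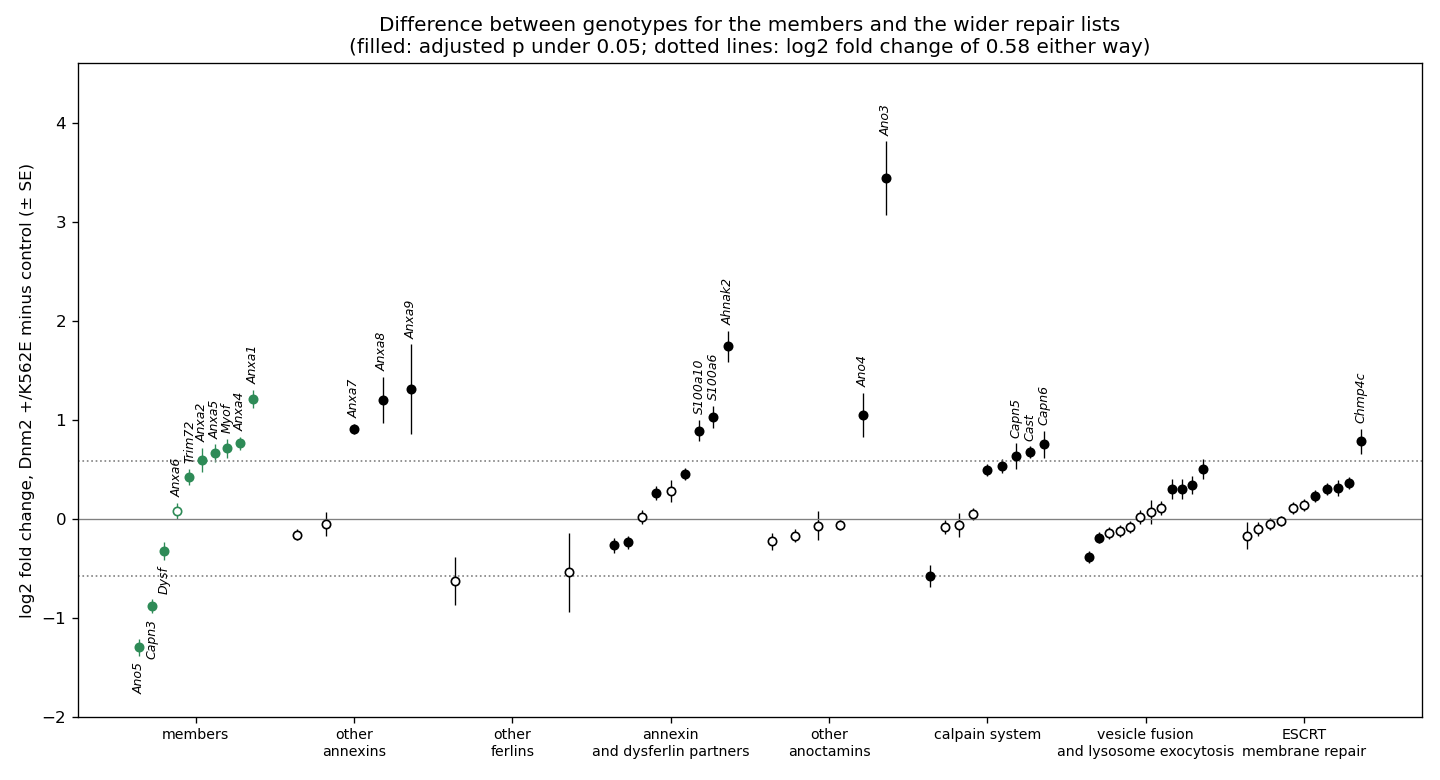
Log2 fold change, Dnm2 +/K562E minus control, of the members and of the tested genes of the 7 wider lists, with bars of 1 standard error, filled points for an adjusted p under 0.05 and dotted lines at 0.58 either way. Ano5 (-1.30) and Capn3 (-0.88) lie below the lower line and Anxa1 (1.21) leads the members above the upper one, while Ano3 (3.44) is the highest point.

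Of 9 partners of annexins and dysferlin, 5 rose and 2 fell by the test, against 22.2% and 21.7% of all tested genes. Past both thresholds 3 rose, against 12.9% of all tested genes. S100a10, the partner chain of annexin A2, had 33.5, 41.7, 38.9 and 45.9 normalized CPM in the controls and 81.1, 65.6, 67.5 and 83.0 in Dnm2 +/K562E mice 1 to 4, with no overlap. Its mean went from 40.0 ± 5.18 to 74.3 ± 9.01 (log2 fold change 0.89, SE 0.11, adjusted p = 8.79e-05 by edgeR). The log2 ratio of Anxa2 to S100a10 counts was 1.43, 1.63, 1.73 and 1.62 in the controls and 1.34, 1.48, 1.42 and 1.03 in the mutants, and the ranges overlapped. The means of 1.60 ± 0.12 and 1.32 ± 0.20 did not pass the test (difference -0.29, exact two-sided permutation p = 0.0571, adjusted p = 0.0571), and the difference was -0.19 without Dnm2 +/K562E mouse 4. S100a6, another small calcium-binding protein that binds annexins, went from 40.2 ± 2.23 to 82.1 ± 13.6 normalized CPM (log2 fold change 1.03). Ahnak2, from the family of giant scaffold proteins found at the sarcolemma, went from 12.1 ± 2.53 to 40.4 ± 7.38 (1.74). Adjusted p-values by edgeR were 2.64e-05 for S100a6 and 1.31e-05 for Ahnak2.

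**Figure D5:**
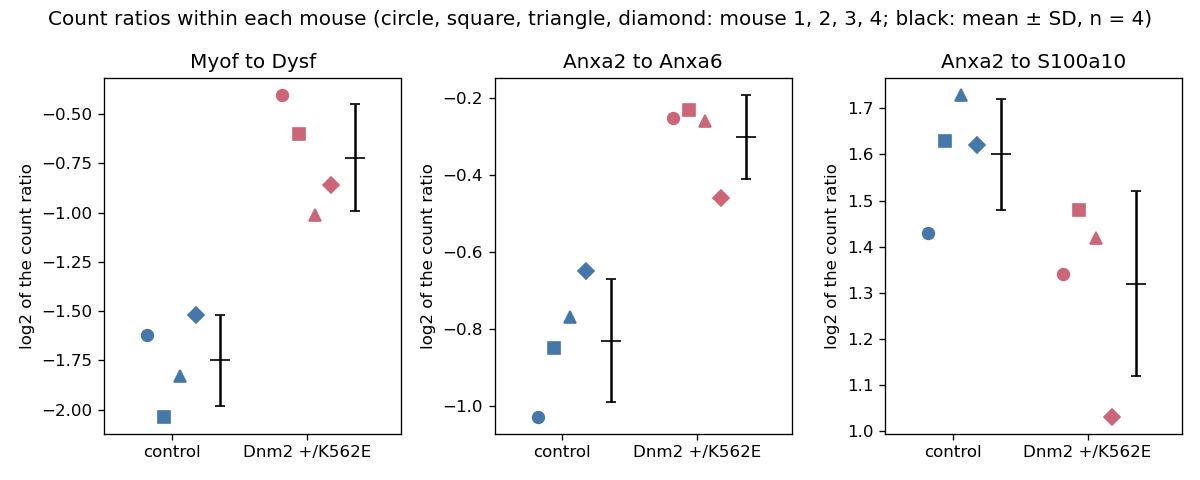
Log2 ratio of the counts of 2 genes in the same mouse, for Myof to Dysf, Anxa2 to Anxa6 and Anxa2 to S100a10, with 1 point per mouse and the mean and SD of 4. The genotypes are apart in the first (means -1.75 and -0.72) and the second (-0.83 and -0.30) and overlap in the third.

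Among the anoctamins other than Ano5, 2 of 6 tested rose and none fell by the test of edgeR, against 22.2% and 21.7% of all tested genes. Ano3 had 6, 3, 10 and 13 counts in the controls and 89, 87, 137 and 71 in Dnm2 +/K562E mice 1 to 4, a log2 fold change of 3.44 (SE 0.37, adjusted p = 3.51e-05 by edgeR) at a low level of 2.41 ± 0.613 normalized CPM in mutants. Ano4 went from 1.74 ± 0.406 to 3.60 ± 0.626 (log2 fold change 1.05, adjusted p = 0.00254 by edgeR). Ano6, the phospholipid scramblase, had 83.9 ± 3.1 and 80.5 ± 2.48 (log2 fold change -0.06, adjusted p = 0.404 by edgeR).

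Among 9 genes of the calpain system other than Capn3, 5 were higher and 1 lower by the test, against 22.2% and 21.7% of all tested genes. The lower gene was Capn15 (11.1 ± 1.27 to 7.41 ± 0.478 normalized CPM, adjusted p = 0.00135 by edgeR). Its log2 fold change, -0.58 when rounded, fell just short of the fold threshold. Cast, the inhibitor calpastatin, went from 131.4 ± 6.18 to 208.8 ± 8.17 normalized CPM (log2 fold change 0.67, SE 0.06, adjusted p = 7.83e-06 by edgeR). Capn5 (6.60 ± 1.11 to 10.2 ± 0.792, adjusted p = 0.00216) and Capn6 (8.16 ± 0.923 to 13.8 ± 2.67, adjusted p = 0.00167) rose past both thresholds in the same edgeR fit, and 2 more, the catalytic chains Capn1 and Capn2, rose below the fold threshold (0.49 and 0.53 on the log2 scale). Exons of Anxa9 (3.4% of bases), Ano3 (0.8%), Chmp4c (3.3%), Cast (7.3%) and Capn15 (19.3%) overlap those of a counted gene on the other strand, so their reads may include some of its reads, as the strand setting of the counting is not given in the sources used here. Of 12 genes of vesicle fusion and lysosome exocytosis, 4 rose and 2 fell by the test, against 22.2% and 21.7% of all tested genes. In edgeR 0 of them were past both thresholds, and the median log2 fold change was 0.04. Of 11 genes of ESCRT, the machinery that pinches off damaged membrane, 5 rose and none fell by that test, against the same shares. Their median was 0.14, and Chmp4c alone rose past both thresholds (5.15 ± 0.375 to 8.85 ± 1.41, adjusted p = 0.000808 by edgeR).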

How the data were processed

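RNA from soleus of 4 control and 4 Dnm2 +/K562E mice was sequenced. The authors trimmed reads with Trimmomatic 0.33, aligned them with STAR 2.5.1b to GRCm38 and counted them per Ensembl gene with featureCounts, leaving out alignments of mapping quality under 10. Among the alignments past that quality, their options counted multi-mapping reads at the primary alignment, and a read on several genes for each of them. They deposited these raw counts for each mouse. The labels name a stranded total RNA kit, the methods a poly A kit, and the strand setting is not given in the sources used here.

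Members were found by symbol after matching 22647 of 22880 identifiers to GENCODE M21. The members and lists were chosen with earlier results of these data known, and named genes are all members, list genes past both thresholds, the 2 markers of highest mean CPM per list (others were named after their values were seen), and the 3 tested genes closest to the member of smallest p in each direction. Counts were filtered with filterByExpr (minimum 10, minimum total 15), scaled by TMM and tested with the quasi-likelihood F-test of edgeR 4.0.16 in R 4.3.3, with adjustment over 14001 genes and thresholds of 0.05 and 0.58. A prior count of 2 went into log2 CPM. Count ratios were compared by exact permutation with scipy 1.17.1. Counts between mice of a genotype differed beyond sampling noise (lowest chi-square per degree of freedom 13), so none was taken as a repeat of another. Other settings tried were DESeq2 1.42.0, edgeR's exact test, scaling by library size alone or by median-ratio factors, no filter or 10 counts in every mouse, either replicate block, no fold threshold, and each mouse left out. On simulated data for this comparison (13910 genes, 198 changed by log2 1.5), 93.4% of changed genes were recovered, and 8 of 193 calls were unchanged genes. In that simulation few genes changed, up and down alike and by a single size, whereas 43.8% of all tested genes passed in the real data. Its rates therefore need not hold for the real data or for smaller fold changes. Protein sequences were not used here. A further marker list is not reported here.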

Additional observations from a re-analysis of the deposited data

Results flagged for a closer look

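In groups of 4 mice, a mouse was singled out where its gap to the nearest other exceeded 0.829 of the range of its group. Of 26 groups looked at, 3 had such a mouse, and chance gives about 1 in 20. Control 4 had 54.2 normalized CPM of Anxa1, above the other controls (42.5 to 44.4), with a gap of 0.84 of the range. Dnm2 +/K562E mouse 1 had 63.2 normalized CPM of Anxa4, above the other mutants (55.2 to 56.3), with a gap of 0.864. Dnm2 +/K562E mouse 4 had a log2 ratio of Anxa2 to Anxa6 of -0.46, below the other mutants (-0.26 to -0.23), with a gap of 0.861. Control 4 also had the highest macrophage sum among the controls, 135.5 normalized CPM. Anxa1 and Anxa4 passed both thresholds when each of these mice was left out in turn.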

How the results depend on the processing

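Over 16 alternatives per member, 8 of the 10 members kept direction and side of the adjusted p threshold. The exceptions were Dysf and Anxa6, both with library size alone (-0.12, adjusted p = 0.29, and 0.29, adjusted p = 0.0121, by edgeR), a scaling that moved the median of all tested genes by 0.21. Dysf ranged from -0.40 to -0.12 (adjusted p 0.00181 to 0.29) and Anxa6 from 0.00569 to 0.29 (adjusted p 0.0121 to 0.951). The rest ranged from 1.15 to 1.42 for Anxa1, 0.46 to 0.80 for Anxa2, 0.71 to 0.97 for Anxa4, 0.59 to 0.88 for Anxa5, 0.63 to 0.92 for Myof, 0.37 to 0.63 for Trim72, -1.38 to -1.09 for Ano5 and -0.94 to -0.67 for Capn3. Members higher past both thresholds numbered 5, or 4 to 6 under the alternatives. The 6 came with library size alone, where Trim72 joined, and with no fold threshold. The 2 lower became 3 with no fold threshold.

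Of the wider lists, 0 genes were lower past both thresholds. DESeq2 and median-ratio factors each gave 2 (Fer1l6 and Capn15), the exact test of edgeR and no filter each gave 1 (Fer1l6), and leaving out a mouse gave 0 to 1. With no fold threshold 24 were higher and 5 lower. Leaving out each mouse, the log2 difference was 0.92 to 1.12 for Myof to Dysf and 0.46 to 0.58 for Anxa2 to Anxa6 (exact permutation p = 0.0571 each time, the smallest that 3 against 4 mice allow), and -0.34 to -0.19 for Anxa2 to S100a10.

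Same-numbered mice showed little shared deviation (correlations -0.213, -0.0851, 0.00949 and -0.167 by title, 0.178, -0.101, -0.0307 and -0.167 by description). The numbers were therefore not used as a pairing, but so few correlations cannot exclude one. With either replicate block the members stayed at 5 higher and 2 lower. The wider lists had 11 higher with the block by title and 12 by description, and 0 lower. All genes had 1637 higher and 1036 lower by title and 1739 and 1083 by description, against 1806 and 1099.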

Other observations

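By the root mean square difference of log2 CPM over the 8 mice, with each gene centred on its control mean, the tested genes closest to Anxa1 were Sept5 (0.0773), Itih5 (0.0836) and Arfgap3 (0.0993), against a median of 0.887 over all tested genes. Their log2 fold changes were 1.15, 1.20 and 1.22. Closest to Ano5 were Khdrbs3 (0.074), Ppm1l (0.0938) and Oxct1 (0.117), against a median of 0.962, with log2 fold changes of -1.26, -1.27 and -1.40. Sept5 encodes a septin, Itih5 a protein that binds hyaluronan, and Oxct1 the enzyme that lets tissues use ketone bodies. The points share 8 libraries, and these values are a description.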
